A study of Mus musculus with 2 samples.

Results

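The genes described here encode the proteasome, the protease complex that degrades ubiquitin-tagged proteins, with its immune subunits, caps, inhibitor and assembly chaperones. They were chosen by name alone, as all genes whose single symbol in GEO's platform annotation is Psma to Psmg followed by a number. The choice gave 49 of the 18193 genes with a value. Of the 49, 47 encode proteins of the proteasome or its assembly, and 2, Psmc3ip and Psme3ip1, are named after a binding partner and encode no subunit. Psme2 is not counted among them, because its probe set also carries the symbol Psme2b, and its value is given apart.

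Cell samples of 2 kinds were compared, with 1 Affymetrix array each, both sorted from spleen, in C57BL/6 mice with hepatocellular carcinoma, a cancer of the liver. The CD45-negative sample was sorted for presence of Ter119, a surface antigen of the red cell lineage, and for absence of CD45, which marks white cells. The CD45-positive sample, from those same mice, served as the control, and the labels do not state whether Ter119 was part of its gate. Both samples came from tumour-bearing animals, so no group was free of tumour, and the mice's age and sex, how the tumours arose and whether animals were pooled are not stated in the labels used here. The design asks how the 2 sorted populations differ.

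The proteasome consists of a barrel-shaped core particle, whose outer rings of alpha subunits form the gate and whose inner rings of beta subunits hold the proteolytic sites, and of caps that open it. The main cap, the regulatory particle, has a base with a ring of ATPases that unfold substrates and a lid that removes ubiquitin. Interferon induces catalytic subunits that replace the constitutive ones and form the immunoproteasome, which is abundant in white cells and cuts peptides for MHC class I molecules. Maturing red cells clear much of their protein content, partly through ubiquitin and the proteasome.

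Values are array intensities on a linear scale, and a difference is the log2 intensity of the CD45-negative sample less the log2 intensity of the CD45-positive sample. Each gene was read from its brightest probe set. Since each probe set has its own response, levels were compared between the arrays and not between genes. A gene counted as measured above an intensity of 101.1, a level set by probe sets for odorant and vomeronasal receptors, and 11793 genes passed it in at least 1 array. Of the 49 genes, 47 were measured in both arrays. The exceptions were Psma8, a testis variant of a core subunit, with 13.7 in CD45-negative and 30.9 in CD45-positive cells, and Psmb11, a subunit of the thymus epithelium, with 79.7 in CD45-negative and 35.5 in CD45-positive cells. Since neither group had a replicate, no difference could be tested and there are no p-values. The lone repeated measure was how far a gene's own probe sets differed, with a pooled SD of the difference of 0.61 over 21 of the genes and 0.66 over all 3608 genes that allowed it, which is not replicate error.

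**Figure D1:**
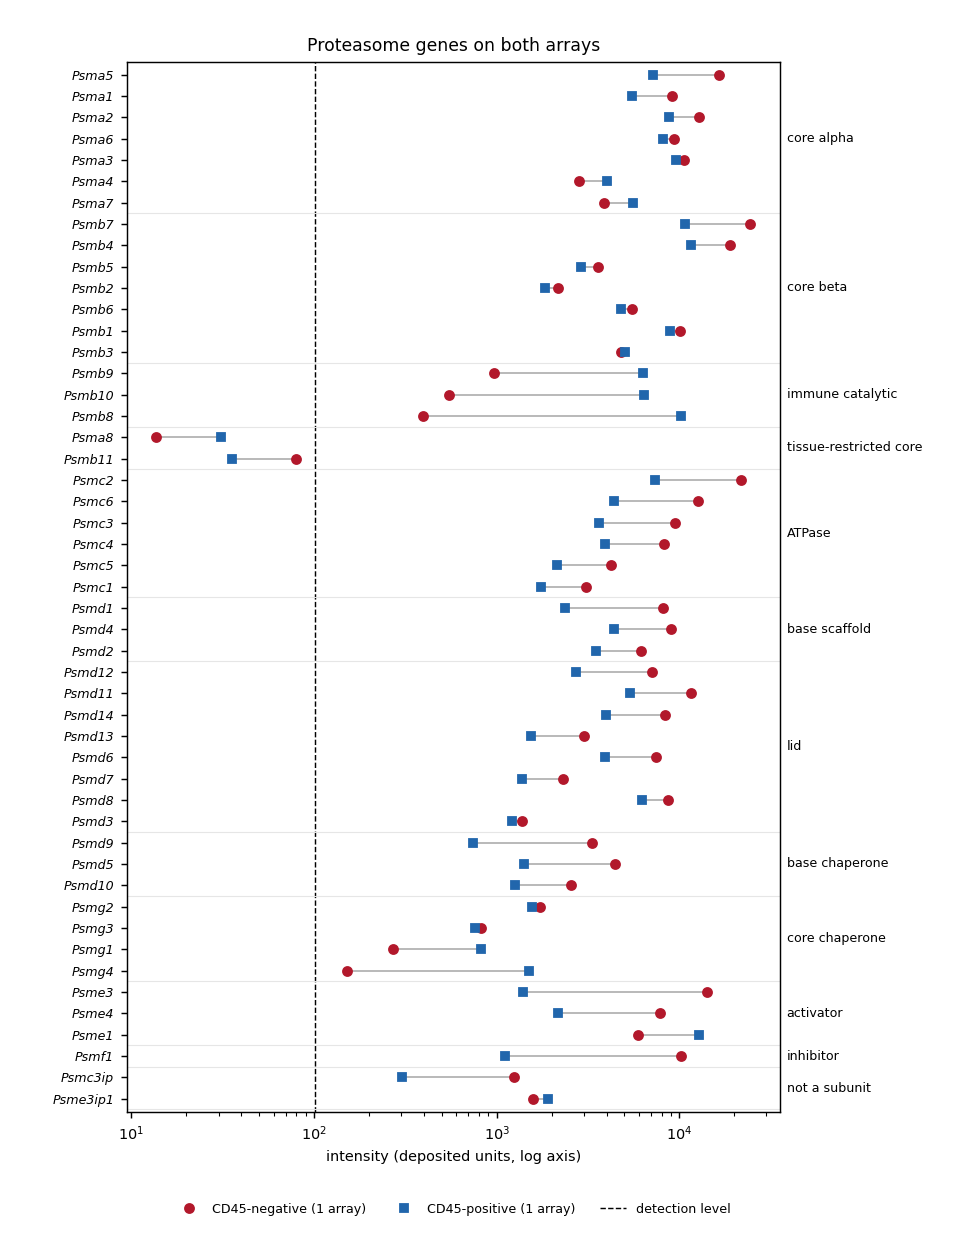
Intensity of the 49 genes in CD45-negative cells (red circles) and the CD45-positive array (blue squares), on a log axis, grouped by role, with the detection level of 101.1 as a dashed line. Each point is 1 probe set on 1 array. The 3 immune catalytic subunits lie far to the left in CD45-negative cells, while all 6 ATPases lie to the right.

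Of the 47 measured genes, 37 were brighter in CD45-negative cells, where 43.3% of all measured genes were. Their median difference was 0.75, and that of all 11793 measured genes was -0.26. A total of 18 were at least 2-fold higher in CD45-negative cells, against a background of 16.8% of all measured genes, and 6 were at least 2-fold lower, against a background of 33.3%. At 4-fold, 4 were higher (Psme3, Psmf1, Psmd9 and Psmc3ip, background 8.31%) and 4 were lower (Psmb8, Psmb10, Psmb9 and Psmg4, background 16.8%). Most of the constitutive subunits are bright, and brightness moved with the difference. Among 2837 other genes as bright as the constitutive subunits, the median difference was 0.23, 56.9% were brighter in CD45-negative cells, 30.9% were higher by 2-fold or more and 21.0% lower by 2-fold or more. This second background was chosen after the values were seen. Of the 31 constitutive subunits of core and regulatory particle, 28 were brighter in CD45-negative cells, 11 by 2-fold or more, and 0 were dimmer by that much. Their median difference was 0.81.

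**Figure D2:**
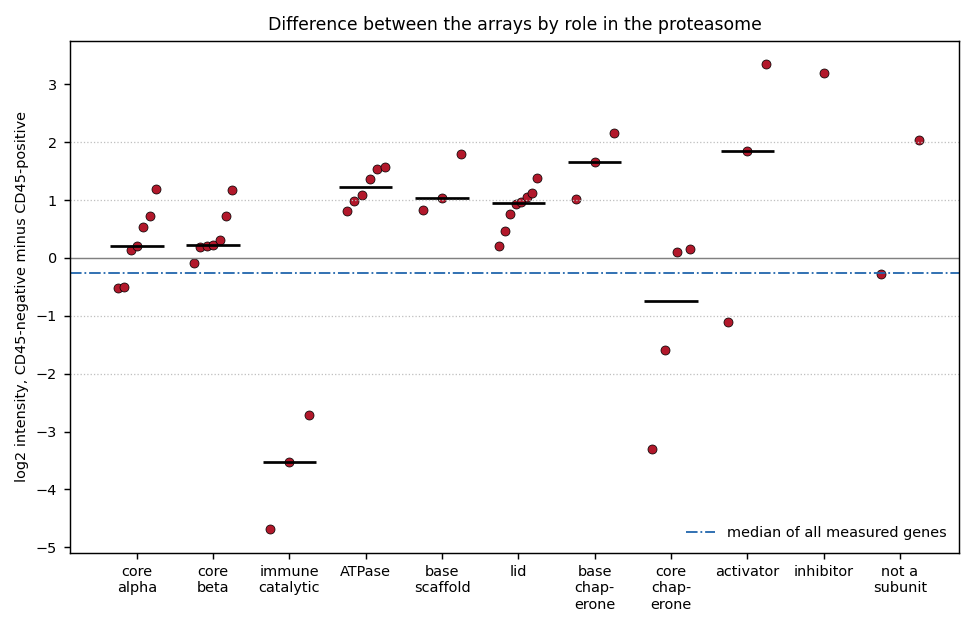
Difference of each measured gene (log2 intensity, CD45-negative minus CD45-positive) by its role, with the median of each role of 3 or more genes as a black bar and the median of all measured genes, -0.26, as a dash-dotted line. Dotted lines mark 2-fold and 4-fold. Most roles overlap, such as the ATPases between 0.81 and 1.57 and the lid between 0.20 and 1.38. Only the core chaperone Psmg4 lies as low as the immune catalytic subunits, between -4.69 and -2.72. Only the activator Psme3 lies above the inhibitor at 3.20.

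The core particle differed little between the samples. Its 14 constitutive subunits had a median difference of 0.22, close to the 0.23 of equally bright genes. Among them, 12 lay within 2-fold, and 2 were at least 2-fold higher in CD45-negative cells, where 30.9% of equally bright genes were. The 7 alpha subunits ran from -0.52 to 1.19. Psma5 was the highest of them, with 16432 in CD45-negative and 7210 in CD45-positive cells, 2.28-fold higher. The others lay within 2-fold. Psma1 had 9086 in CD45-negative and 5477 in CD45-positive cells. Psma2 stood at 12772 in CD45-negative and 8803 in CD45-positive cells. For Psma6 the values were 9373 in CD45-negative and 8153 in CD45-positive cells. Psma3 was the closest to equal of the 7, with 10582 in CD45-negative and 9631 in CD45-positive cells. Psma4 and Psma7 were the alpha subunits that were dimmer in the CD45-negative cells. Psma4 had 2838 in CD45-negative against 4031 in CD45-positive cells. Psma7 had 3873 in CD45-negative against 5568 in CD45-positive cells.

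The 7 constitutive beta subunits ran from -0.09 to 1.18. Psmb7, which carries the trypsin-like site, had 24473 in CD45-negative and 10791 in CD45-positive cells, 2.27-fold higher. The other catalytic subunits differed less. Psmb5, with the chymotrypsin-like site, had 3596 in CD45-negative and 2897 in CD45-positive cells. Psmb6, with the caspase-like site, had 5506 in CD45-negative and 4777 in CD45-positive cells. The 4 beta subunits without a catalytic site were all within 2-fold. Psmb4 had 19028 in CD45-negative and 11582 in CD45-positive cells. Psmb1 had 10051 in CD45-negative and 8885 in CD45-positive cells. Psmb2 had 2172 in CD45-negative and 1848 in CD45-positive cells. Psmb3 alone was dimmer in the CD45-negative cells, with 4763 in CD45-negative against 5064 in CD45-positive cells. The direction of the core depended on the scaling between arrays, with a median of -0.11 after quantile normalization, when 6 of 14 were brighter in CD45-negative cells. Under median centring it was 0.73, and 13 of 14 were brighter.

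The immune catalytic subunits, which are built into the core in place of constitutive ones, were lower in the CD45-negative cells by a wide margin. Psmb8, which replaces Psmb5, had 393 in CD45-negative against 10182 in CD45-positive cells, 25.9-fold lower (-4.69). Psmb10, which replaces Psmb7, had 550.0 in CD45-negative against 6367 in CD45-positive cells, 11.6-fold lower (-3.53). Psmb9, which replaces Psmb6, had 965 in CD45-negative against 6355 in CD45-positive cells, 6.58-fold lower (-2.72). All 3 were above the detection level in both arrays. They stayed at least 4-fold lower under each of the 7 other ways of processing that were tried. Psmb9 and Psmb10 have 1 probe set each and no detection level changed them, so only the scaling between arrays could. Quantile normalization gave -2.82 for Psmb9 and -3.51 for Psmb10, and median centring -2.21 for Psmb9 and -3.03 for Psmb10.

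Within the arrays, each immune subunit moved apart from the subunit it replaces. For Psmb8 and Psmb5, the difference of the immune subunit minus that of its partner was -5.01 on the log2 scale (32.1-fold). For Psmb10 and Psmb7 the gap was -4.71 (26.3-fold), and for Psmb9 and Psmb6 it was -2.92 (7.59-fold). The chymotrypsin-like and trypsin-like pairs were therefore further apart than the caspase-like pair. These gaps do not depend on a common scaling of the arrays, although quantile normalization, which moves bright and dim values by different amounts, gave -4.80 for Psmb8 and Psmb5, -4.04 for Psmb10 and Psmb7 and -2.66 for Psmb9 and Psmb6. Differences between the pairs were not tested.

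**Figure D3:**
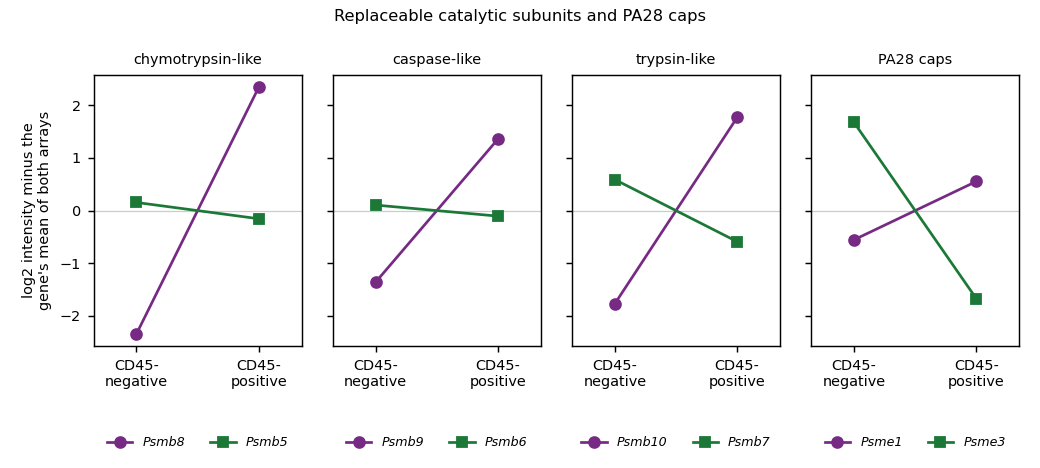
Log2 intensity of each gene, minus its own mean of both arrays, in CD45-negative cells (left) and the CD45-positive array (right), for the 3 pairs of immune (purple) and constitutive (green) catalytic subunits and for 2 PA28 cap genes. Each point is 1 array. The immune subunit of each pair climbs steeply towards the CD45-positive side, its differences running from -4.69 to -2.72, while its constitutive partner slopes slightly or moderately the other way, and Psme3 (3.35) runs against Psme1 (-1.11).

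Psmb8 and Psmb9 lie beside the peptide transporter genes in the MHC region. In the RefSeq gene table, the order on chromosome 17 is Psmb9, Tap1, Psmb8 and Tap2, with class II genes on both sides. Tap1 and Tap2 encode the transporter that carries proteasome products into the endoplasmic reticulum, and both were lower in the CD45-negative cells. Tap1 had 879.6 in CD45-negative against 4314 in CD45-positive cells, 4.90-fold lower. Tap2 had 319 in CD45-negative against 2019 in CD45-positive cells, 6.33-fold lower. All 4 neighbouring genes were thus at least 4-fold lower, where 16.8% of all measured genes were. Psmb10 lies on chromosome 8 and was lower as well.

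The upstream sequences of the immune subunits Psmb8 and Psmb9 and of the constitutive subunits Psmb5 and Psmb6 are shown to set the replaced and replacing genes side by side, as the 250 bases before the annotated start from RefSeq (GRCm38.p6), written from 5′ to 3′ on the gene's strand. They are chr17:34197945-34198194 (plus strand) for Psmb8, chr17:34187331-34187580 (minus strand) for Psmb9, chr14:54617996-54618245 (minus strand) for Psmb5 and chr11:70525107-70525356 (plus strand) for Psmb6. Capitals mark matches, on either strand, to any of the 5 strings searched: the antioxidant response core TGACNNNGC, the interferon-response string (GAAA, 2 bases of any kind, GAAA), its shorter core AANNGAAA, the gamma activated site TTCNNNGAA and CCAAT.
Psmb8: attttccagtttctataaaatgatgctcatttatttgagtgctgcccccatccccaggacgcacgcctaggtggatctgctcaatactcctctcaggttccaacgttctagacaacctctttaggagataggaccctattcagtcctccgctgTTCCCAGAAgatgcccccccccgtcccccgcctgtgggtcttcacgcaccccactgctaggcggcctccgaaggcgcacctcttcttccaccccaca
Psmb9: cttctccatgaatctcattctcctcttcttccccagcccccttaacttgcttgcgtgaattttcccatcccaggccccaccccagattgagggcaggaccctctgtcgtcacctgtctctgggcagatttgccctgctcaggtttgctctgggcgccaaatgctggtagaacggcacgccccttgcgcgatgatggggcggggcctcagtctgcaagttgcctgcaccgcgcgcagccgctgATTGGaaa
Psmb5: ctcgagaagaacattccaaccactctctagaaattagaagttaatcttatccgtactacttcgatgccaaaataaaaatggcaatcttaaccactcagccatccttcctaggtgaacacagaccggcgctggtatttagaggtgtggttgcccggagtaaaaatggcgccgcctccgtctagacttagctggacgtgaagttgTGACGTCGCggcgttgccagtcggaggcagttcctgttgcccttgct
Psmb6: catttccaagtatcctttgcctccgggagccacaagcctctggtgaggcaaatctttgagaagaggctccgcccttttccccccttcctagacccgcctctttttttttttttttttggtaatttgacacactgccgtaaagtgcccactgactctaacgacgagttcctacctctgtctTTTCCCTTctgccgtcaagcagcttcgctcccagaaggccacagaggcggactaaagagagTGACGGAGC

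In Psmb8 the capitals are a gamma activated site string 97 bases before the start. In Psmb9 they are a CCAAT string read on the other strand, 8 bases before the start. Psmb5 and Psmb6 each held the antioxidant response core, 47 and 9 bases before the start, and Psmb6 also the shorter interferon-response core on the other strand. Both constitutive genes shown thus held the antioxidant response core and neither immune gene did, which is too few genes for a comparison. In a window that also takes in the 50 bases after the start, 14.0% of all genes held this string. The remaining pair, Psmb10 and Psmb7, is not shown, and no promoter was available for Psmb7.

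The same strings were counted over the whole set, and the share with a match differed from that of all genes by string. In windows from 250 bases before to 50 bases after the start, 41 of the 49 genes had a promoter in the table. The antioxidant response core, bound by the factors NRF1 and NRF2, was found in 6 of the 41 (14.6%), namely Psmb5, Psmb6, Psmc6, Psmd9, Psmd12 and Psme4, against 14.0% of 27025 genes. CCAAT was found in 16 (39.0%), against 41.1%. The interferon-response string was found in 5 (12.2%), namely Psme1, Psmd4, Psmd9, Psmb3 and Psmg4, against 3.99%. Of those 5, Psme1 and Psmg4 were lower in the CD45-negative cells by 2-fold or more, Psmd4 and Psmd9 at least 2-fold higher, and Psmb3 within 2-fold. The 2 strings added after the values were seen, AANNGAAA and TTCNNNGAA, were found in 31.7% and 7.32% of the 41, against 26.7% and 9.55% of all genes, where every match to the longer interferon-response string is also one to AANNGAAA.

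Genes of white cells were lower in CD45-negative cells as a whole, as the sort on CD45 sets, and the immune subunits moved with them. All 6 markers of white cells at large were at least 36.7-fold lower by their brightest probe sets. Their summed intensity of 3380 in CD45-negative cells was 2.15% of the 156843 in CD45-positive cells. Of 7 lymphocyte markers, 6 had a value, all at least 4-fold lower, and their sum of 1174 in CD45-negative cells was 1.78% of the 65822 in CD45-positive cells. Of 5 myeloid markers, 4 were at least 4-fold lower, and their sum of 2406 in CD45-negative cells was 2.96% of the 81312 in CD45-positive cells. Among these markers, Cd48, Cd3d, Thy1 and Itgam, at 18.4 to 96.0, were under the detection level in CD45-negative cells. Ptprc, which encodes CD45, had 423 in CD45-negative against 32147 in CD45-positive cells.

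Beside these values, Psmb8 kept 3.86% of its CD45-positive intensity, Psmb10 8.64% and Psmb9 15.2%. By the brightest probe set of each gene, all 3 shares lie above the range of the white cell markers, 1.14% to 2.73%. Those of Psmb10 and Psmb9 lie above every lymphocyte marker as well, of which the highest was 5.48%. The 4 myeloid markers above the detection level in both arrays kept 4.78% or less. The order does not hold for every probe set. A second Psmb8 probe set, under the detection level in CD45-negative cells, stood at 2.465%. Other probe sets had log2 differences of up to 0.19 for the white cell marker Laptm5 and -2.48 for the myeloid marker Csf1r. These shares are of the values as deposited, with none raised to the detection level, and Itgam, under it in CD45-negative cells, has only a bound there. The part of white cell RNA in the CD45-negative values of the immune subunits was not tested. In such bulk samples, fewer cells of a type and less RNA per cell cannot be told apart.

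**Figure D4:**
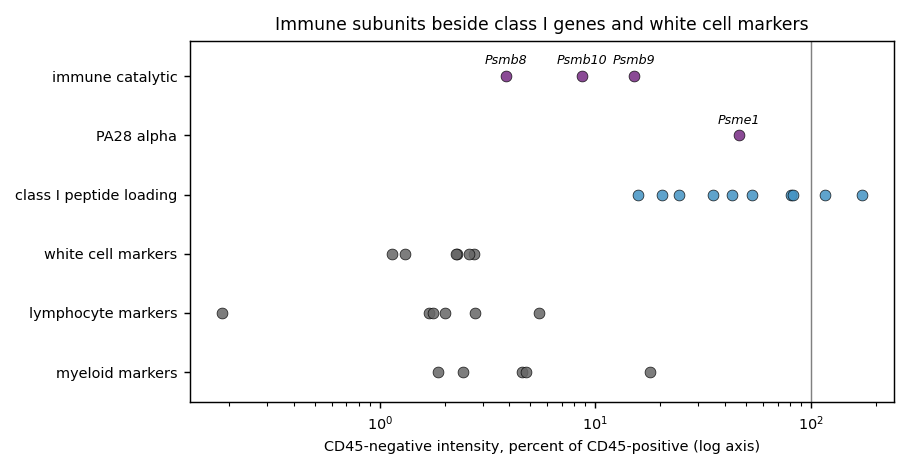
Intensity in CD45-negative cells as a percentage of that in CD45-positive cells, on a log axis, for the immune catalytic subunits and PA28 alpha (purple), 10 genes of class I peptide loading (blue) and markers of white cells (grey), each point being 1 gene. By the brightest probe set of each gene, immune catalytic subunits, at 3.86% to 15.2%, sit to the right of most white cell markers and to the left of the class I genes. The nearest class I gene, Tap2, is at 15.8%. Other probe sets, not drawn, reach a log2 difference of -4.6 for the class I gene H2-K1.

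Other genes that make or use class I peptides were less uniform. Of 10 genes of class I peptide loading, 5 were at least 2-fold lower, 5 were within 2-fold and 0 passed 2-fold in the other direction, where 33.3% of all measured genes were lower and 16.8% higher by that much. Their median difference was -1.07. Tap1, Tap2 and the trimming enzyme Erap1 passed 4-fold, and Erap1 had 278 in CD45-negative against 1138 in CD45-positive cells. B2m, the light chain of class I molecules, was within 2-fold, at 55566 in CD45-negative and 47882 in CD45-positive cells. Of 5 measured regulators of proteasome genes, the 2 that act on immune subunits were lower in the CD45-negative cells. Irf1, an interferon-induced factor, had 254 in CD45-negative against 3283 in CD45-positive cells (12.9-fold lower). Nlrc5, the class I transactivator, had 399 in CD45-negative against 4126 in CD45-positive cells (10.3-fold lower). The other 3 were within 2-fold. Among them was Nfe2l1, which encodes NRF1, the factor that raises constitutive subunits when proteasome activity drops, with 674 in CD45-negative and 829 in CD45-positive cells.

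All 6 ATPases of the regulatory particle were brighter in the CD45-negative cells, within a narrow range by their brightest probe sets. Their differences ran from 0.81 to 1.57 with a median of 1.22 (2.34-fold). Their SD of 0.31 compares with 0.38 for the lid, 0.42 for the constitutive beta subunits and 1.88 over all measured genes. The lowest probe sets above the detection level in both arrays gave 0.37 for Psmc2, 0.46 for Psmc6 and 0.60 for Psmc4, within 2-fold. Psmc2 had 21842 in CD45-negative and 7374 in CD45-positive cells, 2.96-fold higher. Psmc6 had 12579 in CD45-negative and 4361 in CD45-positive cells, 2.88-fold higher. Psmc3 had 9426 in CD45-negative and 3638 in CD45-positive cells, 2.59-fold higher. These 3 and Psmc4 passed 2-fold, where 30.9% of equally bright genes did. Psmc4 stood at 8272 in CD45-negative and 3925 in CD45-positive cells, 2.11-fold higher. The remaining members of the ring were brighter by less than 2-fold, with 4211 in CD45-negative and 2137 in CD45-positive cells for Psmc5 and 3074 in CD45-negative and 1753 in CD45-positive cells for Psmc1. All 6 were brighter in CD45-negative cells under every alternative tried, whereas the number past 2-fold was 1 with quantile normalization and 6 with median centring.

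The 3 scaffold subunits of the base were brighter too. Psmd1, a platform subunit of the base, had 8180 in CD45-negative and 2371 in CD45-positive cells, 3.45-fold higher. Psmd4, a receptor for ubiquitin chains, had 8968 in CD45-negative and 4375 in CD45-positive cells, 2.05-fold higher. Psmd2, the other platform, to which ubiquitin-like domains bind, had 6202 in CD45-negative and 3507 in CD45-positive cells, 1.77-fold higher. The gene for another ubiquitin receptor, Adrm1, had no value here.

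Lid subunits followed the same direction with smaller differences. All 8 were brighter in CD45-negative cells by their brightest probe set, from 0.20 to 1.38 with a median of 0.94, and 3 passed 2-fold, where 30.9% of equally bright genes did. The number past 2-fold was 1 with quantile normalization and 6 with median centring. Psmd12 had 7067 in CD45-negative and 2708 in CD45-positive cells (2.61-fold higher). Psmd11 had 11592 in CD45-negative and 5338 in CD45-positive cells (2.17-fold higher). Psmd14, the enzyme that cuts ubiquitin chains off the substrate, had 8298 in CD45-negative and 3973 in CD45-positive cells (2.09-fold higher). The structural members Psmd13, Psmd6, Psmd7, Psmd8 and Psmd3 were within 2-fold. Psmd13 had 3015 in CD45-negative and 1546 in CD45-positive cells. Psmd6 stood at 7481 in CD45-negative and 3938 in CD45-positive cells. Psmd7, the partner of Psmd14, had 2300 in CD45-negative and 1371 in CD45-positive cells. The last 2 were the closest to equal between the samples. Psmd8 had 8698 in CD45-negative and 6277 in CD45-positive cells. Psmd3 had 1382 in CD45-negative and 1206 in CD45-positive cells. The directions of Psmd13 and Psmd8 were not stable, with -0.63 for Psmd13 when probe sets were averaged and -0.03 for Psmd8 after quantile normalization.

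Subunits of the regulatory particle lay further from 0 than those of the core. All 17 subunits of the regulatory particle were brighter in CD45-negative cells and 9 passed 2-fold, with a median of 1.04, while 11 of 14 core subunits were brighter and 2 passed 2-fold, with a median of 0.22. Of all measured genes, 43.3% were brighter in CD45-negative cells and 16.8% passed 2-fold. Of equally bright genes, 56.9% were brighter and 30.9% passed 2-fold. Relative to all measured genes, the regulatory particle stood at 1.29 and the core at 0.48 in the deposited values. Quantile normalization gave 0.79 and -0.12, and median centring 1.42 and 0.60, for the regulatory particle and the core. The number past 2-fold depended on the scaling. Quantile normalization left 3 of 17 in the regulatory particle and 0 of 14 in the core, and median centring gave 15 of 17 in the regulatory particle and 5 of 14 in the core. The regulatory particle kept the higher median under each scaling. Whether the 2 particles differ was not tested.

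The alternative caps went in opposite directions. Psme3, which encodes PA28 gamma, a nuclear cap that acts without ATP and ubiquitin, had 14209 in CD45-negative against 1393 in CD45-positive cells, 10.2-fold higher (3.35), the largest difference in this direction among the 47 measured genes. Its second bright probe set gave 10663 in CD45-negative against 891 in CD45-positive cells (12.0-fold). Another, with 11.3 in CD45-negative and 24.7 in CD45-positive cells, was under the detection level in both arrays. Psme4, which encodes PA200, a cap linked to histone turnover, had 7798 in CD45-negative against 2179 in CD45-positive cells (3.58-fold higher). Its 4 probe sets above the detection level in both arrays ran from 0.33 to 1.84. Psme1, which encodes PA28 alpha, a subunit of the interferon-inducible cap, had 5921 in CD45-negative against 12802 in CD45-positive cells, 2.16-fold lower (-1.11).

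The partner of Psme1 in the interferon-inducible cap, PA28 beta, is encoded by Psme2. Its probe set, which Psme2b shares, had 2862 in CD45-negative against 14261 in CD45-positive cells, 4.98-fold lower, and which gene gave the signal cannot be told apart. Psme1 and Psme2 lie close together on chromosome 14, with Emc9 between them. The immune catalytic subunits and both probe sets for the interferon-inducible cap were therefore dimmer in the CD45-negative cells, and the other caps, Psme3 and Psme4, were brighter. With median centring, Psme1 stood at -0.61, within 2-fold.

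Psmf1, which encodes the proteasome inhibitor PI31, was 9.19-fold higher in the CD45-negative cells, with 10169 in CD45-negative against 1106 in CD45-positive cells. It lay at percentile 95.9 of the differences of all measured genes, beside percentile 96.3 for Psme3. All 3 of its probe sets above the detection level in both arrays were at least 4-fold higher, from 2.31 to 3.20. Psmf1 was the one gene of the 47 that stayed at least 4-fold higher under every alternative. The genes highest in the CD45-negative cells were thus not subunits of the standard particle but a cap and an inhibitor.

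Genes of red cells and of platelets were higher in CD45-negative cells at large. Of 8 erythroid markers, 6 had a value and all were at least 4-fold higher, with a summed intensity of 320450 in CD45-negative against 10082 in CD45-positive cells. Klf1, an erythroid transcription factor, had 42791 in CD45-negative against 614 in CD45-positive cells. All 5 platelet markers were at least 4-fold higher, with a summed intensity of 32107 in CD45-negative against 1526 in CD45-positive cells. The part of either cell type in the proteasome values was not tested.

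Assembly chaperones are given by the particle they serve, in lists of 3 and 4 genes, and whether the lists differ was not tested. The 3 chaperones of the base all passed 2-fold in the direction of the CD45-negative cells. Of all measured genes 16.8% did, and of genes as bright as the constitutive subunits 30.9%. Their median difference was 1.65. Psmd9 had 3328 in CD45-negative and 744 in CD45-positive cells (4.47-fold higher). Its dimmer probe sets gave differences of only 0.76 and 0.80, within 2-fold, and averaging the probe sets gave 1.24. Psmd5 had 4445 in CD45-negative and 1420 in CD45-positive cells (3.13-fold higher). Psmd10, also known as gankyrin, had 2552 in CD45-negative and 1259 in CD45-positive cells (2.03-fold higher). These chaperones hold the ATPases before they join the ring. Of the 4 chaperones of the core, which steer the alpha and beta rings together, 0 were at least 2-fold higher, 2 at least 2-fold lower and 2 within 2-fold. Among all measured genes, 16.8% were higher and 33.3% lower by that much. Psmg4 had 152 in CD45-negative and 1501 in CD45-positive cells, 9.89-fold lower, with the CD45-negative value not far above the detection level. Psmg1 had 271 in CD45-negative and 821 in CD45-positive cells, 3.03-fold lower. Their partners were within 2-fold. Psmg2, which pairs with Psmg1, had 1718 in CD45-negative and 1552 in CD45-positive cells. Psmg3, which pairs with Psmg4, had 825 in CD45-negative and 765 in CD45-positive cells. These calls depended on the processing, since Psmg1 stood at -0.94 after quantile normalization, within 2-fold, and Psmg3 at -1.40 when probe sets were averaged.

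The 2 genes that share the name pattern without being subunits also differed from each other. Psmc3ip, a factor of meiotic recombination, had 1240 in CD45-negative against 302 in CD45-positive cells (4.10-fold higher). Psme3ip1, whose product binds PA28 gamma, was within 2-fold, unlike Psme3 itself, with 1583 in CD45-negative against 1916 in CD45-positive cells.

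Proteins that work with the proteasome but carry other names were mixed. Of 18 symbols listed, 13 had a value, of which 4 were at least 2-fold higher in the CD45-negative cells, 2 at least 2-fold lower and 7 within 2-fold. Among all measured genes, 16.8% were higher and 33.3% lower by that much. Among genes as bright as the constitutive subunits, the shares were 30.9% and 21.0%. The partners had a median of 0.21, beside the -0.26 of all measured genes. Usp14, a deubiquitinase that sits on the base, was the only one past 4-fold, with 6505 in CD45-negative against 1439 in CD45-positive cells (4.52-fold higher). Pomp, the maturation factor of the core, was within 2-fold, with 4545 in CD45-negative against 6308 in CD45-positive cells. Of 7 genes for the supply of ubiquitin, 2 had a value, too few to describe the list.

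Probe sets of the same gene agreed in direction for most members. Of the 49 genes, 27 had several probe sets, and 21 had at least 2 above the detection level in both arrays. In 16 of the 21 all of them had the same sign, and in 5 (Psma1, Psma3, Psmd11, Psmd13 and Psmd6) both signs occurred. Psmd11 had the most, 5, from -0.13 to 1.81, so its call as 2-fold higher rests on the probe set chosen. Psmd9 ran from 0.76 to 2.16, so its call as 4-fold higher rests on the probe set chosen as well. Psmb3 had -0.09 by its brighter probe set and -1.57 by the other. The 9 genes at least 2-fold higher under all ways of processing were Psmc3ip, Psmc6, Psmd1, Psmd5, Psmd9, Psmd10, Psmd12, Psme3 and Psmf1, and the 4 at least 2-fold lower were Psmb8, Psmb9, Psmb10 and Psmg4. Of these, Psmd1, Psmd5, Psmd10, Psmd12, Psmb9 and Psmb10 have 1 probe set each, and only the scaling between arrays could change their values.

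**Figure D5:**
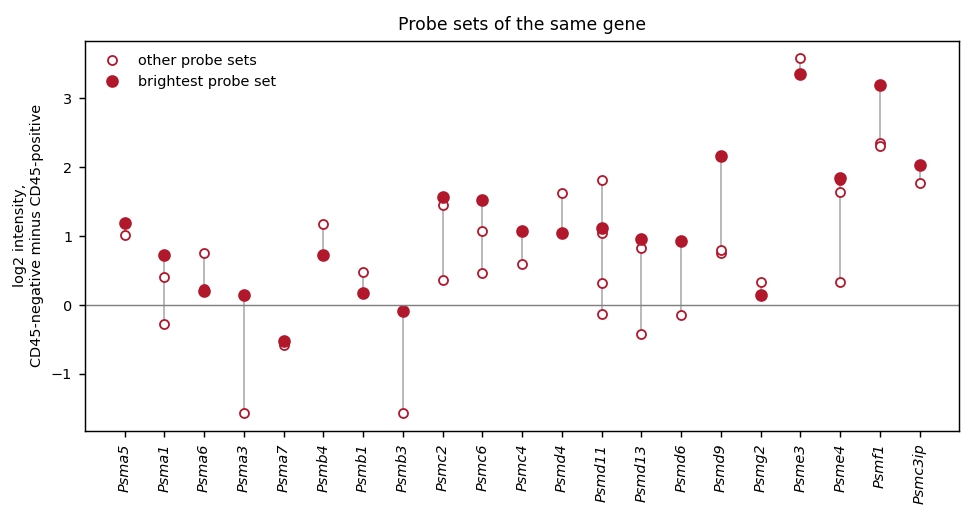
Difference (log2 intensity, CD45-negative minus CD45-positive) of every probe set above the detection level in both arrays, for the 21 genes with at least 2 such probe sets. Filled circles are the brightest probe set, which stands for the gene, and open circles the others. Psme3 and Psmf1 are high by all their probe sets shown, whereas Psma3, Psmd6, Psmd11 and Psmd13 reach both sides of 0.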

How the data were processed

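Biotin-labelled cRNA from total RNA was hybridised to 1 Affymetrix array per sample, per the labels' protocols. The table the authors deposited holds 45037 probe-set intensity values per array on a linear scale. The submitters' processing notes name GCRMA and Partek 6.6 without saying what each did. Trimmed means (2% left out at each end) of 494 in the CD45-negative and 497 in the CD45-positive array point to scaling to a common level, a step not given in the sources used here. Detection calls were not used here.

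Intensities were turned to log2 with no pseudocount. Of 34945 probe sets with 1 symbol, the brightest by mean log2 value stood for its gene. All 49 symbols matched the RefSeq table of GRCm38.p6 by Entrez identifier. The detection level was the 95th percentile of 80 receptor probe sets (127.3 and 73.5 if set for the CD45-negative and the CD45-positive array apart). A value under it was set to it. All symbols of the name rule were reported, and of the partner, regulator, ubiquitin and class I lists those past 4-fold, with Nfe2l1, Pomp, Tap1 and B2m. Marker lists were given as summed levels with Ptprc and Klf1, and markers under the detection level were named after their values were seen. Members and lists were chosen with earlier results of these data known. Alternatives were averaged probe sets, quantile normalization, median centring, no, a stricter or a separate detection level, and no _x_at or _s_at probe sets. Scripts ran under Python 3.11.15 with pandas 2.3.3, numpy 2.4.6 and matplotlib 3.10.9 and were tested on simulated data.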

Additional observations from a re-analysis of the deposited data

How the results depend on the processing

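No paired analysis was possible because each group had 1 array and the differences come from no test. With no replicates, a value was taken as unmoved when it changed by less than the spread between probe sets (0.66, divided by the square root of the number of genes for a list median), and a count when it stayed within 1.5 times. No alternative turned the direction of a difference past 2-fold. Changing the detection level moved 0 list medians or pair gaps.

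Scaling moved more of the list medians than averaging probe sets did, while averaging moved 11 of the single genes and either scaling 0. This contrast follows in part from the limits used. Median centring shifts the genes alike, by less than the limit of 0.66 for a single gene and more than the smaller limits for list medians. The counts therefore do not show how stable the genes are. The median difference of measured genes stood at -0.26 in the deposited values, at 0.01 with quantile normalization and at 0.12 with median centring. Quantile normalization gave medians of -0.11 for the core, 0.92 for the ATPases, 0.60 for the base scaffold, 0.65 for the lid and -0.33 for the core chaperones, a gap of -4.04 for Psmb10 and Psmb7, and 10 genes at least 2-fold higher in place of 18. Median centring gave 0.73 for the core, -3.03 for the immune catalytic subunits, 1.73 for the ATPases, 1.54 for the base scaffold, 1.45 for the lid, 2.15 for the base chaperones, -0.24 for the core chaperones and 2.35 for the activators, with 9 genes at least 4-fold higher in place of 4. Averaged probe sets, which bring in dim ones, gave 0.63 for the lid, 1.24 for the base chaperones, -1.43 for the core chaperones and 0.91 for the activators, and 2 genes at least 4-fold higher. Averaging also took Psme3 to 1.93, Psme4 to 0.91 (within 2-fold), Psmg3 to -1.40 and Psmg4 to -1.45. Signal over background limits Psmg4 most, whose 151.8 in the CD45-negative array lay nearest the detection level.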
